A study of Mus musculus with 2 samples.

Results

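Nnt encodes the nicotinamide nucleotide transhydrogenase, an enzyme of the inner mitochondrial membrane. The annotation behind the deposited tables carries it as 2 gene models, and all rows with the symbol Nnt were taken: 2 of 55536 gene identifiers and 6 of 141862 transcripts. Nnt was selected on the shares of its estimated counts and TPM in the 2 models, which differed between the libraries, so those shares and the shifts built on them are described here without a test. The data are total RNA-seq of whole adrenal gland from female B6CASTF1/J mice aged 2 months, an F1 cross between the strains C57BL/6J and CAST, with ERCC spike-in RNA added and 300 ng of RNA put into each library. There is 1 group with 2 libraries labelled as biological replicates 1 and 2, without a treatment or a second genotype. The biosample entries number the animals separately, while the library descriptions give both the same animal number, so the labels leave unclear whether the spread between the libraries is one between animals.

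The transhydrogenase uses the proton gradient across the inner mitochondrial membrane to pass reducing power from NADH to NADP. The NADPH it makes in the matrix feeds the reduction of glutathione and thioredoxin, which remove peroxides. In the adrenal cortex matrix NADPH also supplies the electrons that ferredoxin reductase (Fdxr) and ferredoxin (Fdx1) carry to the mitochondrial P450 enzymes of steroid synthesis, and inherited loss of the human enzyme is a known cause of glucocorticoid deficiency. C57BL/6J, one parent of the hybrid and the strain of the mm10 reference genome, is known for a deletion of several Nnt exons. Exons lost in that strain are not in mm10, so the deposited tables have no transcript on which reads from them could be counted. From which parental allele the reads came, and whether the counted transcripts encode a working enzyme, was not measured.

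Both gene models lie on the minus strand of chromosome 13 (mm10, GENCODE M21). The larger, ENSMUSG00000025453.18, spans chr13:119335448-119408997 and holds 5 transcripts, Nnt-201 to Nnt-205. The smaller, ENSMUSG00000116207.1, spans chr13:119335528-119408952 within it and holds 1 transcript, Nnt-206. No other protein-coding gene overlapped them. The nearest protein-coding gene, Paip1, which encodes a regulator of translation, began 19604 bases away at chr13:119428601-119458218 on the other strand, and on the other side Fgf10, a growth factor, ended 543333 bases away.

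Nnt-202 is 3464 bases long with 17 exons, and its coding part has 835 codons before the stop. Nnt-206 is 3339 bases long, also with 17 exons and the same 835 codons, and its whole sequence is contained in Nnt-202, which has 45 more bases at the 5′ end and 80 more at the 3′ end. Every base of the smaller gene model therefore belongs to the larger one too. Nnt-201 has 15 exons and 3122 bases, because it lacks exons 8 and 9 of Nnt-202. Those exons hold 342 coding bases, or 114 codons without a remainder, so the reading frame runs on and leaves 721 codons. Both exons are in the reference genome and are thus not those that C57BL/6J has lost. The codon numbers given here are those of the annotated sequence, which does not hold the lost exons. Nnt-203 runs on past exon 14 into the following intron and ends there (3198 bases, 713 codons). Nnt-204 (2340 bases) and Nnt-205 (1885 bases) are annotated as retained-intron transcripts without a coding part and end in the introns after exons 5 and 4.

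Joins that tell the annotated transcripts apart are shown first, since little else does for Nnt-201, Nnt-202 and Nnt-206. In each of the next 5 sequences, written 5′ to 3′ on the transcript strand from the GENCODE M21 transcripts on mm10, the last 30 bases of the upstream exon are in lower case and the 30 bases that follow are in capitals.
Exon 7 to exon 8, in Nnt-202, Nnt-203 and Nnt-206: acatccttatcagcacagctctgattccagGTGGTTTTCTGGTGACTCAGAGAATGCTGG
Exon 9 to exon 10, in the same 3 transcripts: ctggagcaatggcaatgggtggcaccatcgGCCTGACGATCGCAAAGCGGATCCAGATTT
Exon 7 to exon 10, in Nnt-201 alone: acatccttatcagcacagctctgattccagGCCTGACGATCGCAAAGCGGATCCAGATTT
Exon 5 into its intron, in Nnt-204 alone: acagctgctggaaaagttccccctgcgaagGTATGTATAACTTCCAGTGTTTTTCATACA
Exon 4 into its intron, in Nnt-205 alone: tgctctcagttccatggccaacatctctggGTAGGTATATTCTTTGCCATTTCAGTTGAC

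The exon 7 to exon 10 join shares its first 30 bases with the first join and its last 30 bases with the second, so only reads that cross it hold sequence of Nnt-201 alone. The skipped stretch itself is shown whole, since a read inside it cannot come from Nnt-201.
Exon 8, 146 bases, chr13:119374629-119374774: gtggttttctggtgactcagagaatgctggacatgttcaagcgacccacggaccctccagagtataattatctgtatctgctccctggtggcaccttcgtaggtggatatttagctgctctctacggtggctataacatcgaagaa
Exon 9, 196 bases, chr13:119372396-119372591: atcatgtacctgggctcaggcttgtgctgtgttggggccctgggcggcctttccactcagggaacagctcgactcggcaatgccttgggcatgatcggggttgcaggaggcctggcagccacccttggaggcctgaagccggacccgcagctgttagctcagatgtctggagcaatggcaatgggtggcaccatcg

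To measure how much sequence each transcript has to itself, every window of 100 bases was searched for in the other Nnt transcripts. Nnt-202 had 0 of 3365 windows of its own and Nnt-206 had 0 of 3240. As a pair they again had 0 of 3365, since their exon 8 and 9 windows are also in Nnt-203 and their last exons also in Nnt-201. Nnt-201 had 97 of 3023, all across the exon 7 to exon 10 join. The transcripts that run into introns had far more: 925 of 3099 in Nnt-203, 1506 of 2241 in Nnt-204 and 1139 of 1786 in Nnt-205. No window of 100 bases of any Nnt transcript was found in a transcript of another gene. Among windows of 31 bases, 62 of 2310 in Nnt-204 were shared with other genes and 0 in the other 5 transcripts. The map of the joined exonic sequence shows this layout.

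**Figure D1:**
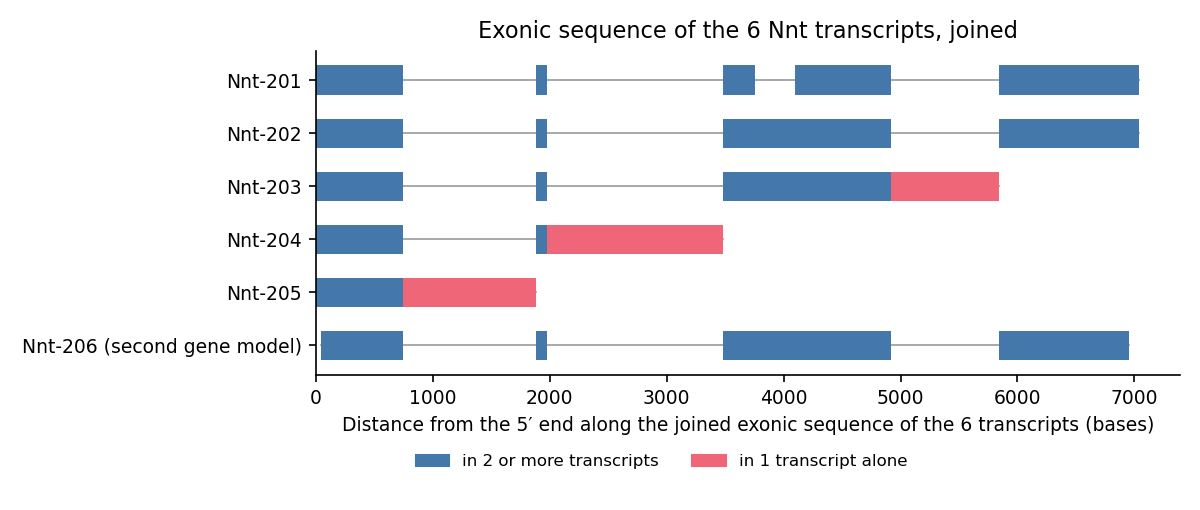
Exonic sequence of the 6 Nnt transcripts, laid end to end in transcript direction (x axis, bases), with 1 row for each transcript; thin lines mark stretches that a transcript lacks. Red marks sequence in 1 transcript alone, of which Nnt-203 has 928 bases, Nnt-204 1506 and Nnt-205 1139, and Nnt-201, Nnt-202 and Nnt-206 have 0.

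In the gene table the 2 models divided the reads differently in the 2 libraries. By estimated count their sum differed less between the libraries than either model. This did not hold by TPM, where the sum went from 39.76 to 48.74 and the larger model from 39.76 to 32.2. In that table the larger model had an estimated count of 4414 reads in replicate 1 and 3189.7 in replicate 2. The smaller model had 0.15 and 1770.3. In replicate 1 the smaller model was nearly empty, while in replicate 2 both models held reads.

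As a share of the summed TPM (a level corrected for transcript length and depth), the larger model held 100% in replicate 1 and 66.1% in replicate 2. By estimated counts the share was 64.3% in replicate 2, with an exact 95% binomial interval of 63.0% to 65.6% that covers counting error only. It leaves out the error of dividing reads between the models, for which the deposited posterior SD was 189 reads. The posterior mean count of the larger model there was 3355 of 4960, a share above that interval. Among 25 symbols with several gene identifiers at 1 TPM or more, 28% had a model whose share differed by more than 10 percentage points between the libraries. Nnt, at 33.9 points, had the largest of the 25 shifts, which is the value it was chosen for. Of those 25 symbols, 8 had, like Nnt, a transcript of one model wholly contained in a transcript of the other. Between the libraries 5 of these 8, Nnt among them, and 2 of the other 17 shifted past 10 points, with medians of 18.5 and 2.26 points. Between the quantifications 3 of the 8 and 5 of the 17 did, with medians of 2.35 and 3.09 points. The part of containment in the shifts was not tested. Containment of this kind occurred in 50 of the 115 symbols with several gene identifiers, or 43.5%.

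The deposited error estimates were wide for the smaller model in replicate 1. Its posterior mean count there was 290.8 with a posterior SD of 224.9, beside an estimated count of 0.15. In replicate 2 it was 1605 with a posterior SD of 189. The SD was identical for the larger model in each library. The deposited TPM intervals, which come without a stated level, ran from 0.000340 to 6.26 in replicate 1 and from 10.9 to 17.7 in replicate 2 for the smaller model. They cover error of estimation within a library only.

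The second deposited table of transcripts reversed the order of the 2 models. Summed by gene model, it gave the larger model 1753 and 1717 reads and the smaller one 3122 and 3861. The larger model's share of TPM was then 35.8% in replicate 1 and 31.7% in replicate 2 (33.8 ± 2.84%, SD, n = 2), against 83.0 ± 24.0% in the gene table. In this table the split moved by 4.02 points between the libraries, where 24% of the 25 symbols moved past 10 points. Between the tables the mean share moved by 49.3 points, again the largest of 25, where 32% moved past 10 points.

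**Figure D2:**
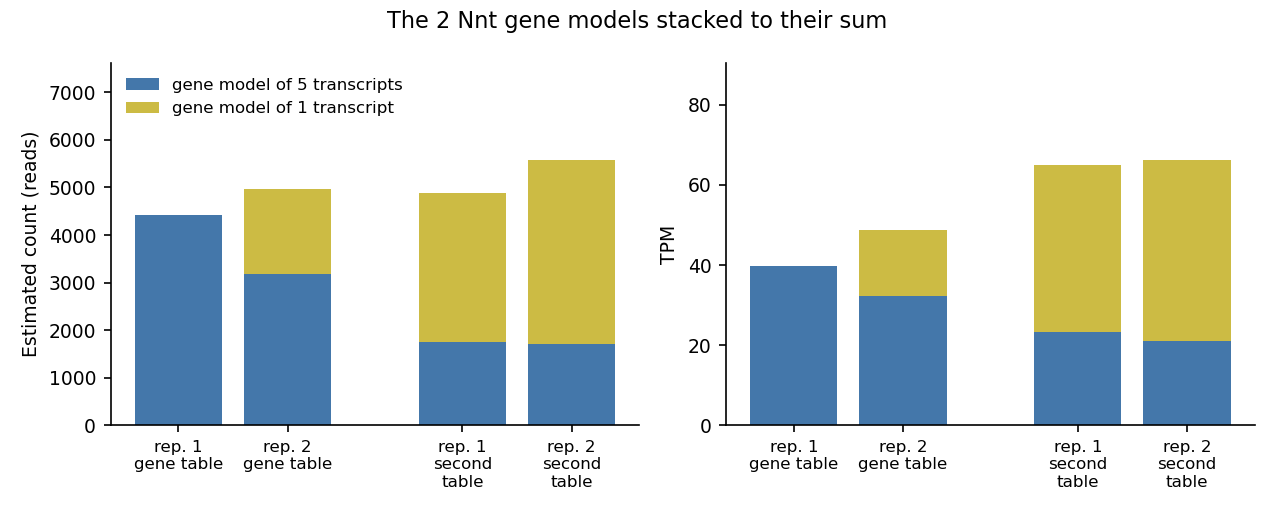
The 2 Nnt gene models stacked to their sum, as estimated counts (left) and TPM (right), for each replicate in the gene table and in the second transcript table. The summed counts lie between 4414 and 5578 in all 4 bars, while the model of 1 transcript goes from 0.15 to 3861 reads.

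Summed over both models, Nnt had 4414 reads in replicate 1 and 4960 in replicate 2, or 39.76 and 48.74 TPM (44.3 ± 6.35, SD, n = 2). Replicate 2 was the higher of the 2 libraries. After TMM scaling, which corrects for depth and for the make-up of the libraries, the log2 ratio of replicate 2 over replicate 1 was 0.16, or 1.12-fold, with an exact 95% binomial interval of 1.07 to 1.16 for counting error. Of 17308 genes with a mean of at least 10 counts, 14.3% differed by more than 1.5-fold between these libraries, and 59.1% had a larger absolute ratio than Nnt. With 1 library on each side of this ratio there is no test. The smallest p that an exact two-sided test of signs could reach with 2 libraries is 0.5.

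The larger model taken alone pointed the other way, with a log2 ratio of -0.48, or 0.719-fold in replicate 2 (interval 0.687 to 0.752). By that single row Nnt was lower in replicate 2, whereas the summed gene was slightly higher there. The interval leaves out the error of dividing reads between the models. By posterior mean the larger model had 4123 and 3355 reads, which differed less between the libraries than its estimated counts. No ratio is given for the smaller model in the gene table, as its count in replicate 1 lay under the floor of 3 reads that a count of 0 allows. In the second table the summed counts were 4875 and 5578, and the log2 ratio was 0.16 once more. There the larger model alone gave -0.06 and the smaller one 0.28.

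Scaling moved this ratio more than the choice of table did. By the ERCC spike-ins the log2 ratio of summed Nnt was 0.36, while the median over all genes moved to 0.19 from -0.01. The larger model alone was at -0.28 by the spike-ins, so under this scaling the sum differed more between the libraries than that model. By library size alone the log2 ratio of summed Nnt was 0.10, with a median over all genes of -0.07. A scaling moves Nnt and the median gene alike, and under each of these Nnt was short of 1.5-fold.

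Among 21979 nuclear protein-coding symbols, summed Nnt ranked 1518th in replicate 1 and 1377th in replicate 2 by TPM, within the top 6.91% and 6.27%. The larger model alone would have ranked 2190th in replicate 2. In the second table the summed gene ranked 1788th and 1685th. Nnt was thus an abundant transcript of the gland in both tables, although whole-gland RNA cannot tell fewer cells of a type from less RNA per cell.

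The second table gave higher TPM values for Nnt, 64.9 and 66.3 (65.6 ± 0.926, SD, n = 2), which was 1.63-fold the gene table's value in replicate 1 and 1.36-fold in replicate 2. The mean log2 difference was 0.58, while the median over 15106 genes was 0.72 and 78% of genes differed by more than 1.5-fold. In CPM, counts corrected for depth alone, Nnt differed by 0.14 and 0.15 on the log2 scale, beside a median over all genes of 0.15 and 11.2% of genes past 1.5-fold. With TPM rescaled to the nuclear protein-coding genes, Nnt was lower in the second table, at 0.851-fold in replicate 1 and 0.834-fold in replicate 2 (131 ± 8.16 in the gene table and 110.4 ± 5.31 in the second, SD, n = 2). Which table gave the higher level of Nnt thus depended on the scale. Nuclear protein-coding genes held 31.7% and 35.6% of all TPM in the gene table and 60.9% and 58.1% in the second one.

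The split among transcripts turned on the 3 forms that share nearly all their sequence. In the first transcript table Nnt-201, without exons 8 and 9, had 2079 reads in replicate 1 and 3103 in replicate 2. Nnt-202 had 2254 in replicate 1 and 0 in replicate 2, while Nnt-206 had 0.15 and 1770.3. These 2 forms, one contained in the other, traded places between the libraries, and their sum was 2255 and 1770.3 reads, or 19.2 and 16.5 TPM.

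The second table gave most reads to Nnt-206, with 3122 and 3861. Nnt-202 received 1474 and 751 there, and Nnt-201 only 197 and 867. Compared with the first table, the second gave Nnt-201 0.0947 times the reads in replicate 1 and 0.279 times in replicate 2. The forms with exons 8 and 9 summed to 4596 and 4612 reads there, about the same in both libraries.

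The transcripts with much sequence of their own were minor in both tables. Total RNA can also hold unspliced Nnt RNA with the same intron sequence, whose part in these reads was not measured. Nnt-203 had 43.3 and 35.2 reads in the first table and 43.9 and 38.8 in the second. Nnt-204 had 17.7 and 27.1 in the first and 23.1 and 37.5 in the second. Nnt-205 had 19.9 and 24.8 in the first and 15.8 and 22.9 in the second. The ratio of the second table's count to the first's ranged from 0.796 to 1.39 over these 6 pairs of values, with the highest in Nnt-204. In TPM all 3 were higher in the second table, Nnt-203 at 0.546 against 0.370, Nnt-204 at 0.559 against 0.30 and Nnt-205 at 0.463 against 0.370. The median over 15106 genes was also higher there by TPM, by 0.72 on the log2 scale. Together the 2 retained-intron transcripts held 1.5 ± 0.168% of Nnt TPM (SD, n = 2) and Nnt-203 0.852 ± 0.218%.

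**Figure D3:**
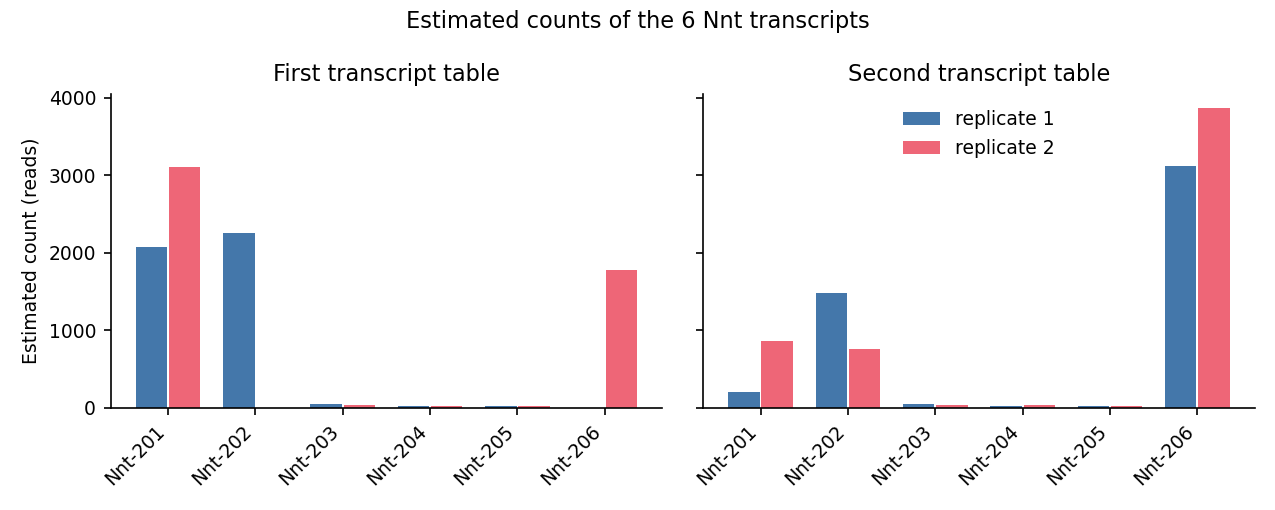
Estimated counts of the 6 Nnt transcripts (y axis, reads) in the first (left) and second (right) transcript table, with 1 bar for each replicate. In the first table Nnt-202 has 2254 and 0 reads and Nnt-206 has 0.15 and 1770.3, and in the second table Nnt-206 leads both replicates with 3122 and 3861 reads.

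How much of Nnt lacked exons 8 and 9 depended on the table. Taken as Nnt-201 over Nnt-201, Nnt-202 and Nnt-206, which removes the split between the 2 gene models, the share by TPM was 50.6% in replicate 1 and 65.3% in replicate 2 of the first table (58.0 ± 10.3%, SD, n = 2). In the second table it was 4.47% and 16.9% (10.7 ± 8.81%). The ranges of the tables did not overlap, and replicate 2 was higher in each. Both tables were made from the same libraries, so this is a difference between quantifications and not between samples.

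Posterior means of the first table gave nearly its own values, 50.7% and 65.2%. Its TPM intervals for Nnt-201 ran from 17.1 to 21.6 in replicate 1 and from 28.1 to 32.7 in replicate 2. In the second table Nnt-201 had 2.83 and 10.9 TPM. The reads that cross the exon 7 to exon 10 join, shown above, were not counted here.

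Shifts past 25 points between the tables were not rare, though that of Nnt was among the larger ones. The leading transcript's share of Nnt, that of Nnt-201, went from 56.6 ± 10.1% in the first table to 10.4 ± 8.58% in the second, a shift of -46.2 points. Of 5799 symbols with several transcripts and at least 10 TPM, 25.1% shifted by more than 25 points and 7.86% by more than Nnt, with a median shift of 12.1 points. Between the libraries of the first table the share moved by 14.3 points, where 30% of those symbols moved past 10 points, 17.8% moved more than Nnt and the median was 5.62 points.

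**Figure D4:**
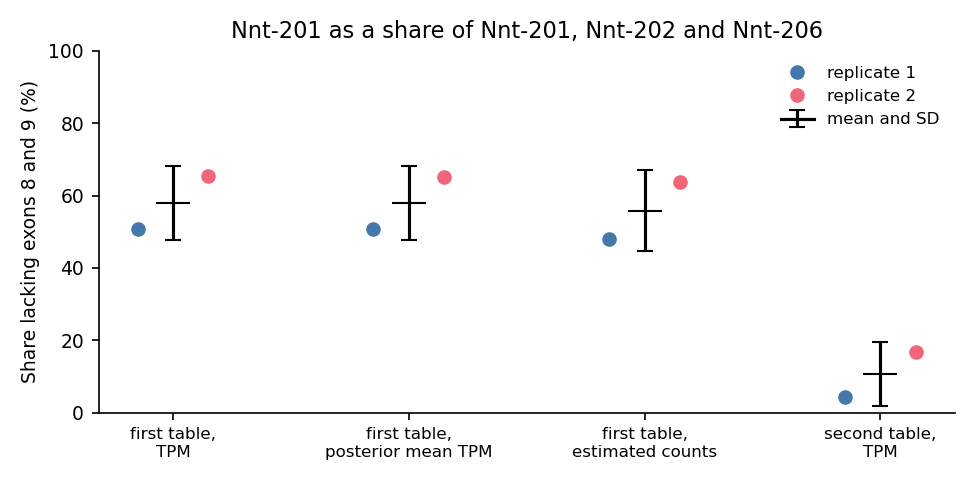
Nnt-201 as a percentage of Nnt-201, Nnt-202 and Nnt-206 together (y axis) in the first transcript table by TPM, posterior mean TPM and estimated counts, and in the second table by TPM; points are replicates and bars show the mean and SD (n = 2). The share lies between 48.0% and 65.3% in the 3 readings of the first table and between 4.47% and 16.9% in the second.

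Among the genes listed here as sources of matrix NADPH, Nnt stood near the top. It was higher than 7 of 8 listed mitochondrial sources by mean TPM, and the exception was Glud1, glutamate dehydrogenase, at 55.6 ± 4.26 TPM (SD, n = 2). Among all nuclear protein-coding symbols Nnt was within the top 6.91% and 6.27%, so most such genes lay below it too. The count for these 8 is thus no result about them. Next below Nnt came Idh2, the mitochondrial NADP-dependent isocitrate dehydrogenase, with 35.35 and 33.36 TPM. Nadk2, the mitochondrial NAD kinase, is listed though it makes NADP and not NADPH, and had 19.8 ± 0.445 TPM. How far each of the other listed enzymes works with NADP rather than NAD was not measured.

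The folate enzymes and malic enzymes were lower. Mthfd2 had 10.7 ± 0.0212 TPM, Mthfd2l 5.12 ± 0.247 and Aldh1l2 0.455 ± 0.0778. The malic enzyme Me2 had 7.22 ± 0.170 TPM. Me3, another mitochondrial malic enzyme, had 357 and 541 reads and was the only one of the 8 past 1.5-fold higher in replicate 2, where 7.09% of all genes were. Its log2 ratio was 0.59, and by library size alone it was 0.53 and short of 1.5-fold. After TMM scaling the median log2 ratio of the 8 was -0.10 and 7 of the 8 had a ratio under 0, as did 51.1% of all genes, while by the spike-ins the median was 0.10 and 7 of the 8 had a ratio above 0, with 26.8% of all genes under 0.

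The users of matrix NADPH in steroid synthesis were far more abundant. Fdxr, which takes the electrons from NADPH, had 385 ± 41.9 TPM (SD, n = 2), or 8.70 times summed Nnt, and Fdx1 had 776 ± 123, or 17.5 times. Cyp11a1, the side-chain cleavage enzyme that makes pregnenolone, had 2394 ± 138 TPM, or 54.1 times. Cyp11b1, the last enzyme of corticosterone synthesis, had 2198 ± 412. Star, which carries cholesterol into mitochondria and is listed with the chain though it uses no NADPH, was the highest at 4378 ± 362.

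Of these 7 genes 6 stood above Nnt, and only Cyp27a1, sterol 27-hydroxylase, lay below, at 4.48 ± 0.113 TPM. Cyp11b2, aldosterone synthase, had 8433 reads in replicate 1 and 4827 in replicate 2 and was 1.76-fold higher in replicate 1. It was the only one of the 7 past 1.5-fold in that direction, as were 7.24% of all genes, and 0 of 7 were past it in the other. Cyp11b1 and Cyp11b2 are close paralogs, and how far their counts share reads was not measured, so both are uncertain.

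In the list for glutathione and thioredoxin reduction Nnt lay in the middle, with 6 of 10 genes above it and 4 below. Among the 6 is a superoxide dismutase, which is listed though it is not part of that reduction. The peroxidases led: Gpx4 had 400.1 ± 110 TPM (SD, n = 2), Prdx3 294 ± 3.37 and Gpx1 289 ± 46.6. Msrb2, a methionine sulfoxide reductase, was lowest at 8.66 ± 0.594. Of the 10, 0 were past 1.5-fold between the libraries, beside 14.3% of all genes. Nnt was thus less abundant than the listed peroxidases and more abundant than 4 members of this list.

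Of 9 cytosolic NADPH genes, 8 stood above Nnt by mean TPM, 7 of them in both libraries, led by Cyp21a1, the steroid 21-hydroxylase, at 3591 ± 382 TPM, Me1, the cytosolic malic enzyme, at 431 ± 12.3 and Idh1 at 246 ± 7.87. H6pd, which makes NADPH in the endoplasmic reticulum and is grouped here, was lowest at 42.4 ± 0.983. Txnrd1, thioredoxin reductase, had 50.07 and 39.13 TPM, above Nnt in replicate 1 and below it in replicate 2. In the second table all 9 of 9 stood above Nnt by mean TPM. In replicate 2 of that table Txnrd1, at 57.2 TPM, and H6pd, at 65.1, lay below Nnt at 66.3. Among 6 genes of NAD supply, Slc25a51, the mitochondrial NAD carrier, had 142 ± 11.6 TPM, Nampt 46.0 ± 1.28 and Nmnat3, an NAD-synthesising enzyme, 3.34 ± 0.170. Of the 9 and the 6 genes 0 were past 1.5-fold between the libraries, where 14.3% of all genes were, which on lists this short is no result about them.

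Of 8 genes tied to the proton gradient, 7 stood above Nnt by mean TPM and 6 of them in both libraries. The ATP synthase subunits Atp5b and Atp5a1 had 863 ± 101 and 373 ± 24.6 TPM. Ucp1, which uncouples respiration in brown adipocytes, had 196 and 429 TPM and was the only one of the 8 past 1.5-fold, higher in replicate 2, where 7.09% of all genes were. Ucp3 was lowest at 6.70 ± 1.64 TPM, and its log2 ratio was 0.44 after TMM scaling and 0.64 by the spike-ins, past 1.5-fold under the latter alone.

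**Figure D5:**
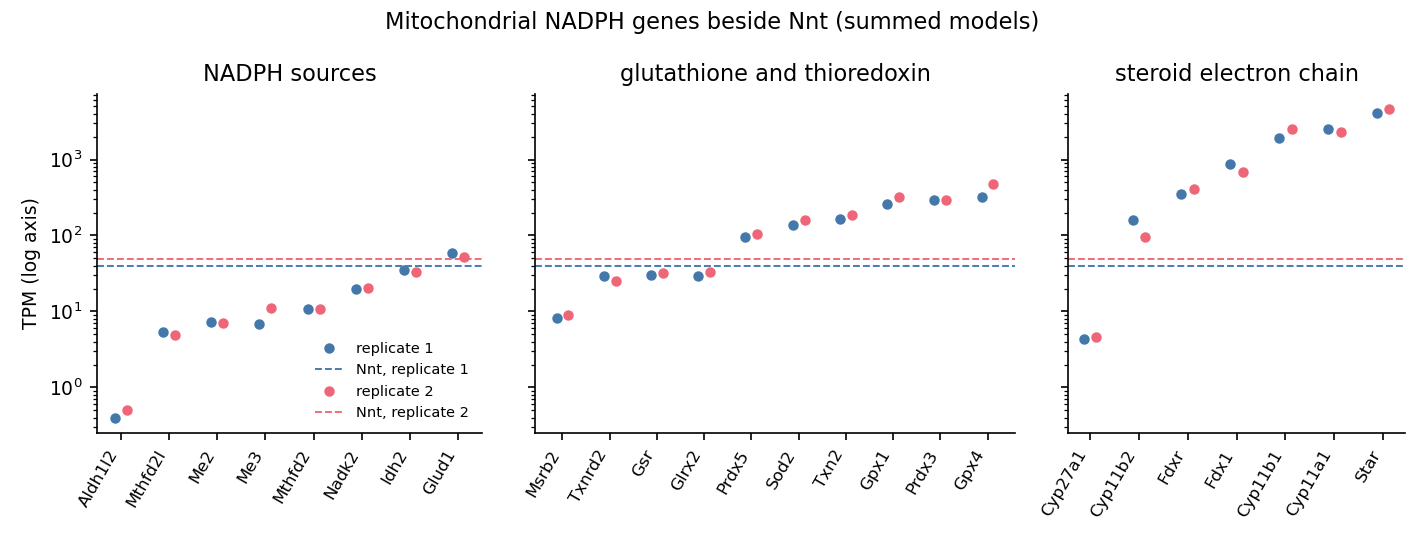
TPM on a log axis of the genes listed as mitochondrial NADPH sources (left), the glutathione and thioredoxin list (middle) and the steroid electron chain with Star (right), with 1 point for each replicate. Dashed lines mark summed Nnt at 39.76 and 48.74 TPM, which lies above 7 of 8 sources and below 6 of 7 genes of the steroid list. Over all nuclear protein-coding symbols Nnt is within the top 6.91% and 6.27%.

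Over all 48 pathway genes, the 3 closest to Nnt by the Euclidean distance of log2(TPM + 1) over the 2 libraries were H6pd (distance 0.25), Nampt (0.26) and Slc25a4 (0.42), an adenine nucleotide carrier. In the second table they were H6pd, Glrx2 and Txnrd1, so H6pd was in both sets. With 2 points the measure reflects the level and little else. The neighbour Paip1 had a like level, 40.01 and 44.84 TPM. On the other side Fgf10 had 0.490 ± 0.0849 TPM, and the next genes out, 4833420G17Rik and B430218F22Rik, had 5.34 ± 0.948 TPM and 1 and 0 reads.

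The depth was 34203664 and 35959484 estimated reads on genes. The 6 cortex markers were all above Nnt (258 to 4378 TPM), as were the 5 chromaffin markers (130 to 637 TPM), so markers of the labelled tissue were present in both libraries. All 5 brown adipocyte markers were past 1.5-fold higher in replicate 2, where 7.09% of all genes were, with a sum of 565 and 1148 TPM. The liver list (3 of 3 genes) and the kidney list (4 of 5) were past it in replicate 1, where 7.24% of all genes were, with sums of 146 and 94.5 TPM and of 19.9 and 0.460 TPM. Alb, albumin, had a log2 ratio of -0.67, and by the spike-ins -0.47, short of 1.5-fold. The kidney markers Kap, Slc34a1 and Umod were at 0 reads in replicate 2. The cortex list summed to 15782 and 18166 TPM, while the chromaffin list summed to 1814 and 1481. White adipocyte markers summed to 316 and 371 TPM and erythroid markers to 424 and 581. Of the 4 white adipocyte markers 3 were higher in replicate 2, and Lep, at 195 and 61 reads, was past 1.5-fold higher in replicate 1. Of the 3 erythroid markers 2 were higher in replicate 2, and 0 were past 1.5-fold. The part of these tissues in the ratio of summed Nnt, and in the share without exons 8 and 9, was not tested.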

How the data were processed

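Total RNA-seq of 2 adrenal libraries in 1 group was used, with mm10 and GENCODE M21, per the file headers and the list of deposited files; of the aligner, its version and its settings the headers and labels say nothing. For each library the authors deposited a gene table and a transcript table with expected counts, TPM and the percent of the gene's TPM in each transcript, under column names that RSEM writes, and a second transcript table with estimated counts and TPM, under column names that kallisto writes. Rows that name no gene held 96 ERCC spike-ins and 26248 numbered entries and stayed out of gene totals; 86 genes have no row in the second table.

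From these the rows of both Nnt models were summed, and transcripts were grouped by exons 8 and 9. Ratios between libraries used expected counts as deposited, scaled with edgeR 4.0.16 (TMM factors of 1.02 and 0.978 from counts rounded to whole numbers over 16570 genes), and a prior of 0.5 counts. The background was all genes with a mean of at least 10 counts, or 1 TPM between quantifications, past 1.5-fold. The ratio step was tested on simulated data. No test between groups was possible, as there is 1 group. The floor of 3 counts was 0.0877 and 0.0834 CPM. Intervals are exact binomial (95%) on rounded counts and cover counting error only, and not the error of dividing reads between the models. The libraries differed by far more than counting noise (chi-square per degree of freedom 77.3 over 17308 genes).

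Alternatives were DESeq2 1.42.0 size factors, spike-in and library-size scaling, TPM, a prior of 2 counts, no low-count filter, stricter minimums, the second table, posterior means and each library alone. The named genes were all Nnt rows, the 3 most and the 1 least abundant of each list, all mitochondrial sources and steroid-chain genes, the 3 nearest list genes and the nearest 2 protein-coding genes on each side. The gene, the members and the lists were chosen with earlier results of these data known. The protein sequence of Nnt was not used here.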

Additional observations from a re-analysis of the deposited data

How the results depend on the processing

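The summed Nnt level was 44.3 TPM, and 65.6 in the second table, 35.98 for the leading model alone and 131 when TPM is rescaled to the nuclear protein-coding genes (39.76 to 48.74 with one library left out). The leading model's share was 83.0%, and 33.8% in the second table (66.1 to 100% with one library left out). The log2 ratio between the libraries was 0.16, and 0.36 by spike-ins, 0.10 by library size and 0.29 by TPM; the leading model alone gave -0.48, which turns the direction. DESeq2 size factors, a prior of 2 counts, no filter and the second table gave 0.15 to 0.17. That ratio has no value with a library left out. Nnt-201 held 56.6% of Nnt TPM and 10.4% in the second table (49.4 to 63.8% with one library left out), and its share of the forms that differ by exons 8 and 9 was 58.0%, and 10.7% in the second table (50.6 to 65.3%). The difference between the tables was 0.58 on the log2 scale by TPM and 0.15 by CPM (0.44 to 0.71). The cause of these shifts was not tested. Estimated counts and posterior means moved no share by more than its SD; posterior means and the readings of the exon 8 and 9 share were chosen after seeing the data. Genes past 1.5-fold between the libraries numbered 2480, and 686 with a minimum of 100 counts, where fewer genes are counted. Between the tables they numbered 11784, and 6584 with a minimum of 10 TPM. The median pathway level was 6.40 on the log2(TPM + 1) scale, and 7.20 in the second table. No paired analysis was possible because there is only 1 group. No ratio is given for the smaller model in the gene table, since its count in replicate 1 is under the floor, and 2 libraries limit every spread given.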
